A study of Rattus norvegicus with 4 samples.

Results

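Expression of the extracellular matrix and of its cell surface receptors was examined in the ischaemic cerebral cortex of rats with and without estradiol. The genes were chosen by name. They comprise collagens, laminin chains, integrin subunits, and the genes Fn1, Vtn, Pcolce, Bgn, Sparc, Vcan, Ncan, Bcan, Agrn, Tnr, Tnc, Spp1 and Cd44. The array held 45 such genes among 4736 genes that had at least 1 probe set annotated to a single symbol. For each gene the probe set with the highest mean intensity over the arrays was used.

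The extracellular matrix is the protein and sugar scaffold between cells. Fibrillar collagens build fibres in meninges and around vessels, laminins and collagen IV build the basement membrane of blood vessels, and the matrix of brain tissue itself is poor in fibres and rich in chondroitin sulphate proteoglycans such as brevican and neurocan. Integrins are receptors made of an alpha and a beta chain that attach cells to laminin, collagen, fibronectin and vitronectin. After ischaemia the vascular basement membrane is degraded, plasma proteins enter the tissue, and fibronectin, osteopontin and tenascin are known to be made by reacting cells.

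Both groups consisted of ovariectomised female rats in which the middle cerebral artery had been closed for 2 h by the intraluminal method. The estradiol group had received replacement with 17beta-estradiol and the placebo group placebo. There were 2 arrays per group, each of RNA pooled from 3 animals, so a group stands for 6 animals, and the spread between the animals of a pool was not measured. The design text names tissue taken at 6 and 24 h, and the titles of these arrays carry the number 6 without a unit. The pools are called estradiol 1, estradiol 2, placebo 1 and placebo 2. SD refers to the 2 pools of 1 group, and SE to the standard error from the fit.

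Values are intensities that the authors had scaled to a common level on every array. The median intensity was between 55.0 and 57.8. The brightest of 23 control probe sets against bacterial, yeast or mouse RNA stood between 30.1 and 37.8, and a probe set is called above background on an array where it exceeded that array's brightest such control. Of the neuron markers, 6 of 6 measured genes were above background on all 4 arrays, and of the cortical neuron markers 4 of 6, with Slc17a7, the vesicular glutamate transporter gene of cortical neurons, at background on all of them. Markers of striatal neurons, which lie outside the cortex, were above background on all arrays for 6 of 8 genes. Their summed intensity was 2569 in estradiol 1, 2344 in estradiol 2, 1743 in placebo 1 and 1714 in placebo 2, whereas that of the cortical neuron list was 2974, 3263, 3559 and 4365 in the same order. The summed striatal list was thus higher, and the summed cortical list lower, in both estradiol pools. Tac1 made up 381, 408, 108 and 116 of the striatal sums, and Penk 641, 526, 174 and 279. Pdyn, the brightest striatal gene, had overlapping groups. Cck made up 1279, 1340, 1855 and 2007 of the cortical sums. Gene by gene, 4 of 8 striatal genes were higher in both estradiol pools and 0 lower. Of the 6 cortical genes, 2 were lower in both and 0 higher. Markers of choroid plexus, which also lies outside the cortex, differed between pools. Their summed intensity over 5 measured genes was 712 in estradiol 1, 5179 in estradiol 2, 9831 in placebo 1 and 512 in placebo 2. The gene Ttr alone made up 165, 4312, 8034 and 74.3 of these sums. The summed intensity of 10 genes of meninges and fibroblasts was 2078, 2510, 4060 and 1172 in the same order. Here the gene Ptgds alone made up 1301, 1451, 2573 and 551, and Igf2 is in both lists. Placebo 1 was thus the highest array and placebo 2 the lowest for both lists.

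Of the 45 genes, 23 were above background on all 4 arrays, 12 on some and 10 on none. The 10 genes at background throughout were Col2a1, Col4a5, Col9a1, Col11a1, Lama2, Lama3, Lama5, Tnr, Vcan and Itgam, at intensities between 0.7 and 34.1. They include the cartilage collagens II, IX and XI, the tenascin gene Tnr of perineuronal nets, versican, and Itgam, the CD11b chain of microglia, macrophages and neutrophils. A filter at a mean intensity of 37.5 was applied before testing. It kept 30 of the genes and removed, beside these 10, Lama1, Cd44, Itga8, Itgae and Itgb4. The plot of intensities by array shows the 30 tested genes.

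**Figure D1:**
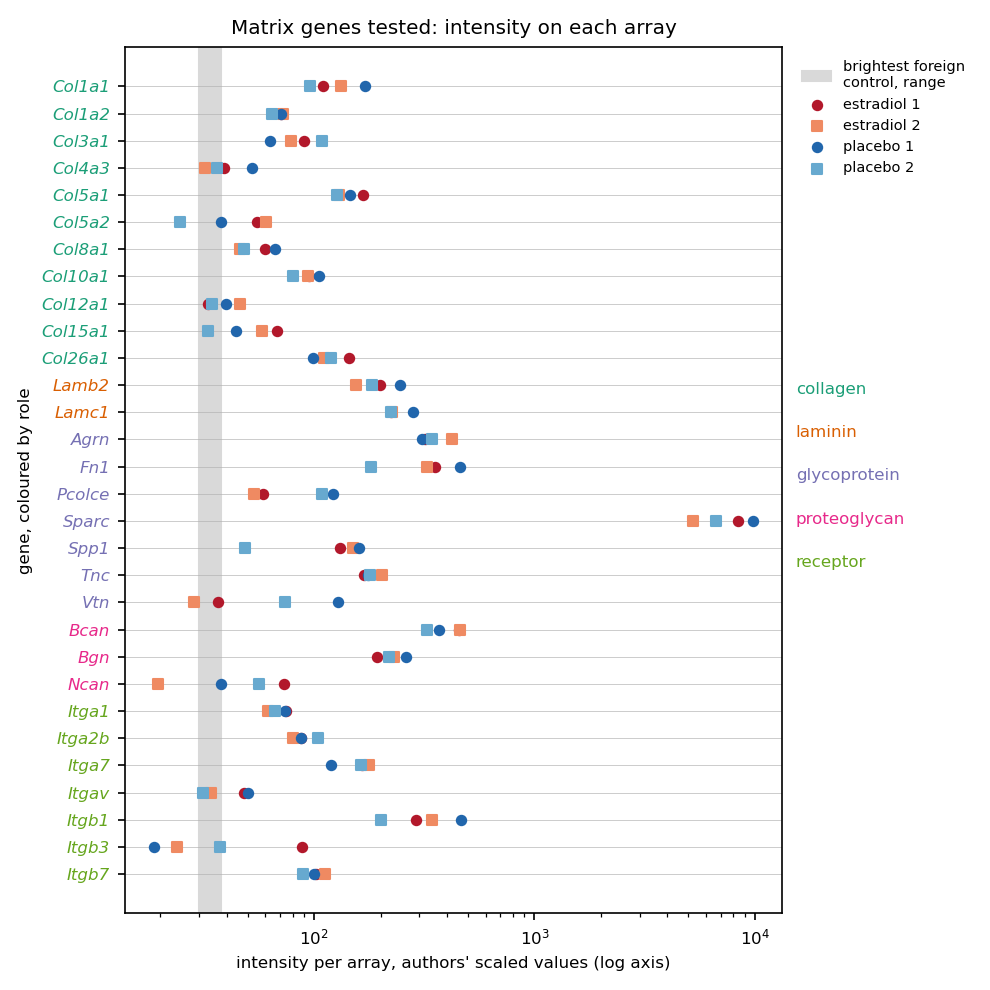
Intensity of each of the 30 tested genes on each array (horizontal log axis, authors' scaled values), with genes as rows coloured by role. Red symbols are estradiol pools, blue symbols placebo pools, and the grey band spans the brightest foreign control of the arrays, 30.1 to 37.8; symbols can cover each other. The estradiol symbols of Vtn and Pcolce lie to the left of both placebo symbols, whereas most other rows are mixed.

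No matrix gene passed the test across the array between estradiol and placebo. In limma with Benjamini-Hochberg adjustment over all 5244 probe sets tested, 0 of the 30 genes were called higher and 0 lower, and the share of all probe sets called was 0% in either direction. At an unadjusted p below 0.05, 0 genes were higher and 2 were lower, Vtn and Pcolce, where 1.74% of all probe sets were higher and 1.33% lower. The median log2 fold change of the 30 genes was 0.035, against 0.011 over all probe sets tested, with 18 genes above 0 and 12 below. The adjusted p in limma was 0.998 for each of the 30. Log2 fold changes here are differences of log2(intensity + 16), estradiol minus placebo, which understate changes of dim probe sets. In whole tissue, fewer cells of a type and less RNA per cell cannot be told apart.

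Both estradiol pools lay above both placebo pools for 5 of the 30 genes (Col5a2, Col15a1, Bcan, Itga7 and Itgb7), or 16.7%, where 15.4% of all probe sets did so. Both lay below for 2 genes (Vtn and Pcolce), or 6.67%, against 14.3% of all. These shares were near those of the whole array or below them. A log2 fold change of at least 0.5 in size was found for 4 genes with the higher value under estradiol (Col5a2, Itgb3, Spp1 and Col15a1), against 5.85% of all probe sets, and for 2 with the lower, against 4.48%. With 2 pools against 2, a two-sided exact permutation test of a single gene cannot give a p below 0.333.

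**Figure D2:**
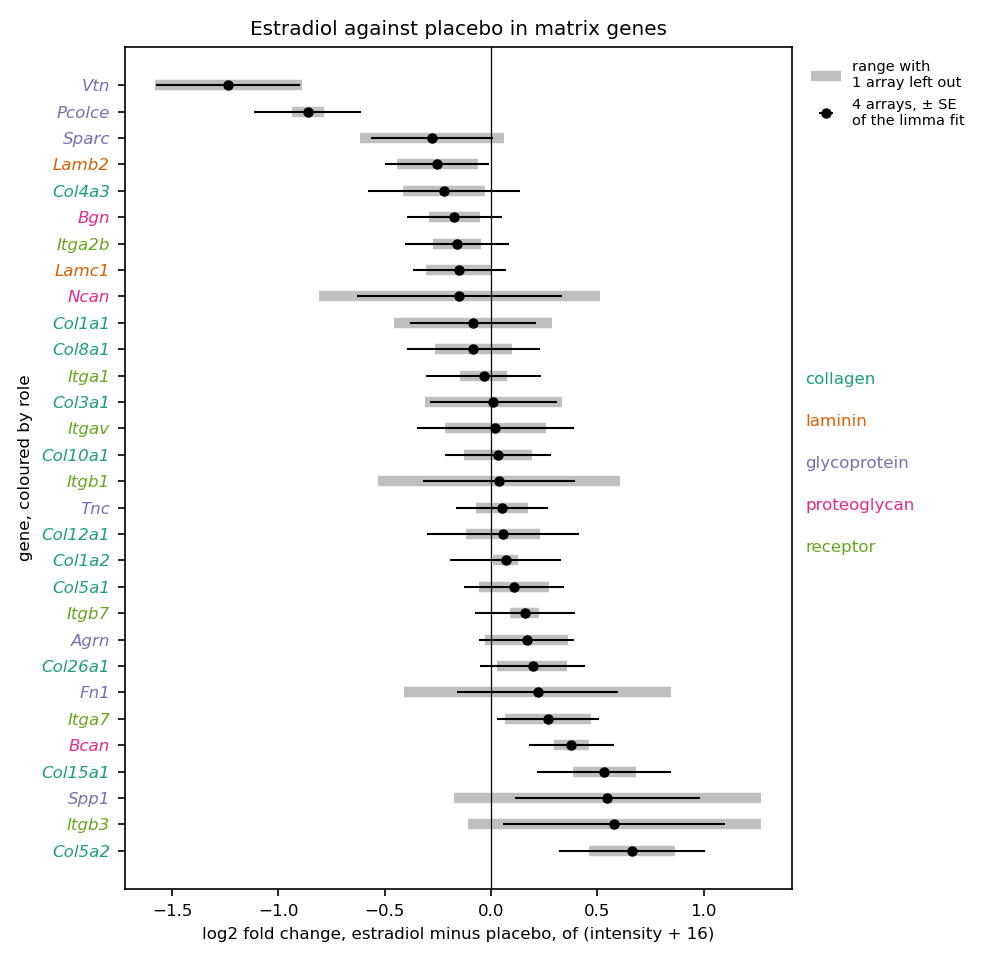
Log2 fold change of each of the 30 tested genes, estradiol minus placebo, of (intensity + 16). Points with thin bars are the value and its SE from limma with 4 arrays, and thick grey bars span the values with 1 array left out. The grey bars of 13 genes stay clear of 0, among them Vtn, Pcolce, Bcan, Col15a1 and Col5a2. For these named genes the groups do not overlap, so their bars could not cross 0. The bars of Fn1, Itgb1, Spp1, Itgb3 and Ncan are wide and cross it.

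The lowest values under estradiol belonged to Vtn and Pcolce, which encode secreted glycoproteins. Vtn encodes vitronectin, a plasma and matrix protein that binds integrins, the urokinase receptor and the plasminogen activator inhibitor PAI-1. Its probe set, U44845_at, read 36.6 and 28.4 in the estradiol pools against 128.6 and 73.6 in the placebo pools. The groups did not overlap, and estradiol 2 was below its array's background. Vtn passed the filter through its placebo pools, since the estradiol mean of 32.5 lay below the filter. The log2 fold change was -1.24 ± 0.34 (SE), with an unadjusted p of 0.00696 and an adjusted p of 0.998 in limma. Without placebo 1 it was -0.89, with an unadjusted p of 0.0835 in limma, and without placebo 2 it was -1.58.

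Pcolce encodes a secreted protein that enhances the removal of the C-terminal propeptide of procollagens, a step before fibres assemble. Its probe set, AF016503_s_at, read 58.3 and 53.5 in the estradiol pools against 121.7 and 108 in the placebo pools. The pools of each group lay close together and the groups did not overlap. The means were 55.9 ± 3.39 (SD, n = 2) under estradiol against 114.8 ± 9.69 (SD, n = 2) under placebo. The log2 fold change was -0.86 ± 0.25 (SE), with an unadjusted p of 0.00932 and an adjusted p of 0.998 in limma, and it lay between -0.94 and -0.79 with 1 array left out. The value was -0.79 without placebo 1 and -0.94 without placebo 2. Several cell type marker lists had genes whose groups did not overlap, although no gene of them passed the adjusted threshold in limma. The blood genes summed to 1872 and 4249 in the estradiol pools against 6173 and 5319 in the placebo pools, and 5 of 5 were lower in both estradiol pools than in both placebo pools, where 14.3% of all probe sets were. Among them the haemoglobin gene Hbb had a log2 fold change of -1.13, Hba-a3 one of -0.88 and the platelet gene Pf4 one of -0.55. Vascular and mural genes summed to 1920 and 1614 against 2504 and 1801, of which the glucose transporter gene Slc2a1 alone made up 1128 and 826 against 1338 and 876. Of the 12 genes of that list, 4 were lower in both estradiol pools and 1 was higher, where 14.3% and 15.4% of all probe sets were. The lower ones were Ocln, a tight junction gene, with -0.83, Slco1a4, a transporter gene of brain endothelium, with -0.53, Acta2, the smooth muscle actin gene, with -0.46, and Abcb1b, which was at background on all arrays, as was the higher one, Vwf. Striatal neuron genes were higher in both estradiol pools for 4 of 8, where 15.4% of all probe sets were. Their log2 fold changes were 1.68 for Tac1, 1.33 for Penk, 0.82 for Drd1 and 1.23 for Rgs9, which was above background only in estradiol 2. Pdyn with -0.155, Adora2a with -0.034 and Adcy5 with 0.31 had overlapping groups, and Drd2 was at background on all arrays. Cortical neuron genes were lower in both estradiol pools for 2 of 6, against 14.3% of all probe sets, with -0.55 for Cck and -0.28 for Npy. Of 7 astrocyte genes, 2 were lower, Gja1 with -0.35 and Glul with -0.19. Of 8 microglia and macrophage genes, 2 were lower, both at background on all arrays, and 1 was higher, Cx3cr1 with 0.28. Among 10 genes of meninges and fibroblasts, 1 was lower, Lum. The neuron, oligodendrocyte and choroid plexus lists had 0 in either direction. The part of these cell types in the result was not tested.

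Promoters are shown for these 2 genes and for Col5a2 and Col15a1, the 2 genes with the highest log2 fold changes among those whose groups did not overlap, because estrogen receptors act at promoters through their own element or through AP-1 and Sp1 factors. Each sequence runs 5′ to 3′ on the gene's strand, from 250 bases before to 50 after the start site, and is taken from RefSeq on assembly GRCr8. Capitals mark matches, on either strand, to GGTCA (the core of an estrogen response element) or to GGGCGG (the GC box of Sp1).
Vtn promoter, chr10:63892532-63892831, plus strand: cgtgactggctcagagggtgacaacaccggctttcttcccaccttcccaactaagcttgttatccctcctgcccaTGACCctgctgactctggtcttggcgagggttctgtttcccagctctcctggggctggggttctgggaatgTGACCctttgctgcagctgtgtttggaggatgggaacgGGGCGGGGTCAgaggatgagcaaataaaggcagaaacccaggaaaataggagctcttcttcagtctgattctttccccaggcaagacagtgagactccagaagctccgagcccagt
Pcolce promoter, chr12:24720722-24721021, plus strand: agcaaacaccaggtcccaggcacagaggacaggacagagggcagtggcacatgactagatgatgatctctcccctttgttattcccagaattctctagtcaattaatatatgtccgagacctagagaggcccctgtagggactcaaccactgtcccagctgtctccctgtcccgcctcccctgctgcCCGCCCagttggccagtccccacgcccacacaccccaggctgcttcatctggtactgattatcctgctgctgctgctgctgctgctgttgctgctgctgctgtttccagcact
Col5a2 promoter, chr9:55090102-55090401, minus strand: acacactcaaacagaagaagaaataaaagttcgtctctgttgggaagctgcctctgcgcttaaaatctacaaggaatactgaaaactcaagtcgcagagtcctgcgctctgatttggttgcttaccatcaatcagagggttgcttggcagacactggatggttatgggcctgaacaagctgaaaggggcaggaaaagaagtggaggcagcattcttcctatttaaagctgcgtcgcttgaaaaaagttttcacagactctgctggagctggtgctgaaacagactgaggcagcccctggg
Col15a1 promoter, chr5:66297296-66297595, plus strand: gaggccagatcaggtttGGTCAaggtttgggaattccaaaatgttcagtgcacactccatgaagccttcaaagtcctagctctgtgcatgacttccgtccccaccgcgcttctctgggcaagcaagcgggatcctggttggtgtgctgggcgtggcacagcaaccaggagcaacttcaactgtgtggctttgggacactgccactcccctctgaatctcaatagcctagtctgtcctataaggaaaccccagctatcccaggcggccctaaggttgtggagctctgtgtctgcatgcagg

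The Vtn window held GGTCA or its reverse complement at 3 places, which begin at -175, -104 and -60 from the start site, and a GC box at -66 that directly precedes the last of them. The Pcolce window held a GC box at -63 and no GGTCA. The Col15a1 window held GGTCA at -233, and the Col5a2 window held neither motif. Of the 45 genes, 35 had a promoter in the table. The full palindrome, GGTCA and its reverse complement with any 3 bases between, was in 0 of the 35 windows and in 0.0255% of 27457 windows of the same length. GGTCA alone, which that palindrome also contains, was in 7 of 35, or 20%, against 40.2% of all windows. TGANTCA, the AP-1 motif, was in 1, that of Lama3, or 2.86%, against 7.33%. GGGCGG was in 18, or 51.4%, against 34.9%, and the median GC content of the windows was 57.0% in these genes and 52.3% over all. Letters of this kind in a window are not evidence of binding.

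Among collagens, 8 of the 11 tested genes had log2 fold changes above 0 and 3 below, with a median of 0.056, and 0 passed the test. Col5a2 encodes the alpha 2 chain of collagen V, a minor partner in collagen I fibrils. Its probe set, rc_AI179399_at, read 55.0 and 60.6 in the estradiol pools against 37.6 and 24.5 in the placebo pools. Both placebo pools were at background, placebo 1 narrowly (37.6 against a control of 37.8), and both estradiol pools were above it. The gene passed the filter through its estradiol pools, since the placebo mean of 31.05 lay below the filter. With each placebo array raised to its brightest foreign control, the readings were at least 1.71-fold higher under estradiol. This bound describes these arrays and is not a tested minimum effect. The fitted log2 fold change was 0.66 ± 0.34 (SE), with an unadjusted p of 0.091 and an adjusted p of 0.998 in limma. Its partner Col5a1 stood at 167.3 and 129.9 against 145 and 127.4, with overlapping groups and a log2 fold change of 0.11. Col15a1 encodes collagen XV of basement membranes. It read 67.4 and 57.9 in the estradiol pools against 44.2 and 33.0 in the placebo pools, without overlap, a log2 fold change of 0.53 ± 0.32 (SE).

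Collagen I, the main collagen of meninges and scars, is made of the chains of Col1a1 and Col1a2. Col1a1 read 109.1 and 131.8 in the estradiol pools against 170.7 and 95.4 in the placebo pools, so the placebo pools lay on either side of the estradiol pools. Its log2 fold change was -0.085, between -0.46 without placebo 2 and 0.29 without placebo 1. Its other 3 tested probe sets gave -0.048, -0.27 and -0.44. Col1a2 stood at 70.9 and 72.0 against 70.9 and 64, a log2 fold change of 0.069, which was 0.13 without placebo 1 and 0.009 without placebo 2. Col3a1, the collagen III chain of vessel walls, stood at 89.6 and 78.3 against 63.1 and 108. Its value was 0.011 for this probe set and -0.53 for the other tested one, which read 26.8 and 43.3 against 54.4 and 59.6, so its direction depends on the probe set.

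Of the basement membrane collagens, Col4a3 read 38.8 and 31.9 in the estradiol pools against 52.3 and 36.3 in the placebo pools, a log2 fold change of -0.22, and was above background on 3 arrays. The value was -0.030 without placebo 1 and -0.415 without placebo 2. Col8a1, a collagen of vessel walls, stood at 59.8 and 45.9 against 66.2 and 48.0, with -0.083. In both genes the groups overlapped. Col12a1, which decorates collagen I fibrils, stood at 32.8 and 46.1 against 39.6 and 34.4, with 0.056. Col10a1, known from hypertrophic cartilage, stood at 95.0 and 93.6 against 104.6 and 80.4, with 0.033, a value that was negative after median centring of the arrays. Its other probe set, AJ131848_at, was at background on all arrays, at 4 and 3.2 against 4.5 and 3.3. Col26a1 stood at 143.6 and 111.1 against 98.3 and 119.5, with 0.20, or 0.030 without estradiol 1 and 0.36 without estradiol 2. Estradiol and placebo pools overlapped in all 5 of these genes.

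Of 6 laminin chains, 2 were tested, and both are parts of the laminins of vascular basement membranes. Lamc1, the gamma 1 chain shared by most laminins, read 222 and 225.6 in the estradiol pools against 280 and 222.9 in the placebo pools. Lamb2, the beta 2 chain, stood at 198.3 and 154.7 against 244 and 183.8. Their log2 fold changes were -0.15 and -0.25, and in both genes placebo 1 was the highest array. Without placebo 1 they were 0.005 for Lamc1 and -0.063 for Lamb2, and without placebo 2 they were -0.30 and -0.44. The other tested probe set of Lamb2 gave -0.19, again with placebo 1 highest, at 222.9 against 107.2 to 149.8 on the other arrays. The alpha chains could not be compared. Lama2, Lama3 and Lama5 were at background on all arrays, and Lama1 was above it only in placebo 2, at 44.7.

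Fibronectin and osteopontin, ligands of integrins that are made in injured tissue, differed between the placebo pools more than between treatments. Fn1, which encodes fibronectin, read 354.8 and 325.8 in the estradiol pools against 457.2 and 181.8 in the placebo pools (probe set X05834_at). Spp1, which encodes osteopontin, read 130.8 and 149.8 in the estradiol pools against 160.3 and 48.7 in the placebo pools (M14656_at). In both genes the estradiol pools lay close together and between the placebo pools, with placebo 2 far below the other 3 arrays. The log2 fold change of Fn1 was 0.22 ± 0.38 (SE), -0.41 without placebo 2 and 0.85 without placebo 1, where the unadjusted p was 0.0176 and the adjusted p 1 in limma. That of Spp1 was 0.55 ± 0.44 (SE), -0.18 without placebo 2 and 1.27 without placebo 1, with an unadjusted p of 0.00505 and an adjusted p of 1 in limma. The direction of both thus depends on which placebo pool is kept. Fn1 had 2 further tested probe sets, at 86.8 and 80.2 against 63.2 and 84.8, and at 38.6 and 57.6 against 64.9 and 68.0. They gave 0.15 and -0.38, and neither had the wide gap between placebo pools that X05834_at showed.

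For the remaining glycoproteins the values of the groups overlapped in the brightest probe set of each gene. Sparc encodes a collagen-binding protein that astrocytes, microglia and endothelial cells make. Its brightest probe set read 8425 and 5255 in the estradiol pools against 9783 and 6657 in the placebo pools, with a log2 fold change of -0.28 ± 0.29 (SE). A further 3 tested probe sets gave 0.38, 0.23 and 0.16, the last without overlap, so the sign of Sparc rested on the probe set. Tnc encodes tenascin C, which appears in development and injury. It stood at 168.2 and 202.1 against 175.7 and 179.3, with 0.051. The other Tnc probe sets, U15550_at and U09401_s_at, were at background on all arrays. They read 8 and 9.2 against 6.3 and 4.8, and 5.7 and 1.5 against 2.3 and 2.5. Agrn encodes agrin, a heparan sulphate proteoglycan of basement membranes and synapses, and stood at 318.6 and 422.1 against 307.9 and 343.1, with 0.17. The other tested probe set of Agrn gave 0.12.

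The proteoglycans had values in both directions, and 0 of 3 passed the test. Bcan, which encodes brevican, a chondroitin sulphate proteoglycan of perineuronal nets, read 453.3 and 457.2 in the estradiol pools against 368.3 and 326.7 in the placebo pools. Its groups did not overlap, and the log2 fold change was 0.38 ± 0.20 (SE), or 0.29 to 0.46 with 1 array left out. Ncan, which encodes neurocan, read 72.7 and 19.5 in the estradiol pools against 37.6 and 56.2 in the placebo pools (AF060879_s_at), a log2 fold change of -0.15 ± 0.48 (SE). The estradiol pools lay at either end of the range, and estradiol 2 and placebo 1 were at background. Its other probe set, M97161_at, which the filter removed, read 17.8 and 17.4 in the estradiol pools against 61.3 and 44.5 in the placebo pools. There both estradiol pools were at background and both placebo pools above it. The readings of M97161_at were at least 1.46-fold lower under estradiol, without a test, whereas the tested probe set overlapped between groups. Bgn, which encodes biglycan, a small proteoglycan bound to collagen fibres, stood at 193.2 and 230 against 262.1 and 218.8, with -0.17. That value was -0.050 without placebo 1 and -0.29 without placebo 2.

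Of the receptors, 7 integrin chains were tested, 5 with log2 fold changes above 0 and 2 below, and 0 passed the test. Itgb1 encodes the beta 1 chain, which pairs with most alpha chains that bind collagen, laminin and fibronectin. It read 290 and 341.5 in the estradiol pools against 462.9 and 201.1 in the placebo pools (rc_AI177366_at), so that the placebo pools again lay on either side of the estradiol pools. Its log2 fold change was 0.037 ± 0.36 (SE), -0.53 without placebo 2 and 0.61 without placebo 1. Itgb3 encodes the beta 3 chain of the vitronectin receptor and of the platelet fibrinogen receptor. It read 87.9 and 23.9 in the estradiol pools against 18.8 and 37.3 in the placebo pools (S58529_at). Only estradiol 1 was far above background, and the log2 fold change was 0.58 ± 0.52 (SE), or -0.11 without estradiol 1 and 1.27 without estradiol 2. Itgav, the alpha partner of beta 3 in the vitronectin receptor, stood at 48.1 and 33.9 against 49.8 and 31.3, with 0.020, a value that turned negative with quantile normalisation or median centring.

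Itga7, the alpha 7 chain of laminin receptors, read 164.1 and 177.6 in the estradiol pools against 118.8 and 162.5 in the placebo pools. Its estradiol pools were just above both placebo pools, with a log2 fold change of 0.27 ± 0.24 (SE), which was 0.065 without placebo 1 and 0.47 without placebo 2. A further probe set that was tested gave 0.43, with overlapping groups. Itgb7, a beta chain of lymphocytes, stood at 102.1 and 111.8 against 99.4 and 89.0, with 0.16, also without overlap, or 0.23 without placebo 1 and 0.090 without placebo 2. The other tested probe set of Itgb7 gave 0.13, with overlapping groups. Itga1, a collagen receptor chain, stood at 74.4 and 61.4 against 73.4 and 66.1, with -0.035. Itga2b, the alpha chain of the platelet fibrinogen receptor, stood at 86.9 and 80.2 against 86.9 and 104.3, with -0.16, or -0.27 without placebo 1 and -0.049 without placebo 2. The groups overlapped or touched in both. Of the untested integrin chains, Itga8 lay between 18.2 and 43.2 and Itgb4 between 10.9 and 48.4, with overlapping groups in each. Itgae, a chain of lymphocytes in epithelia, read 20.8 and 14.4 against 28.8 and 49.3, without overlap, and was above background only in placebo 2. Cd44, the hyaluronan receptor, was not tested. Its brightest probe set read 56.3 and 32.1 in the estradiol pools against 40.2 and 14.4 in the placebo pools. Another of its probe sets (A30543cds_s_at) read 37.9 and 44.0 in the estradiol pools (above background) against 9.1 and 5.2 in the placebo pools (at background). The readings of A30543cds_s_at were at least 1.21-fold higher under estradiol, without a test, as it lay below the filter. The groups overlapped in the brightest probe set, and in AF014365_s_at and AF014365_i_at, which were at background on all arrays.

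Differences between single pools are 1 array against 1 and have no test. Of the 30 tested genes, 22, or 73.3%, were higher in placebo 1 than in placebo 2, where 45.3% of all probe sets were, and the median log2 difference was 0.21, against -0.043 over all probe sets. The same genes gave 17 of 30, or 56.7%, higher in estradiol 1 than in estradiol 2, where 48.5% of all were, and a median of 0.097. Estradiol 1 was higher than placebo 2 for 21 of 30, with a median of 0.17, and estradiol 2 for 18, with 0.072, whereas each estradiol pool was higher than placebo 1 for 12 of 30, with medians of -0.048 and -0.14. By role, 9 of 11 collagens, 2 of 2 laminins, 5 of 7 glycoproteins, 2 of 3 proteoglycans and 4 of 7 integrin chains were higher in placebo 1. The log2 difference between placebo pools was at least 1 for 3 genes, Spp1 with 1.45, Fn1 with 1.26 and Itgb1 with 1.14, or 10.0%, where 6.05% of all probe sets differed that much. Between the estradiol pools it was at least 1 for Itgb3 with 1.38 and Ncan with 1.32, or 6.67%, against 4.75% of all. No gene had such a gap in both treatments.

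**Figure D3:**
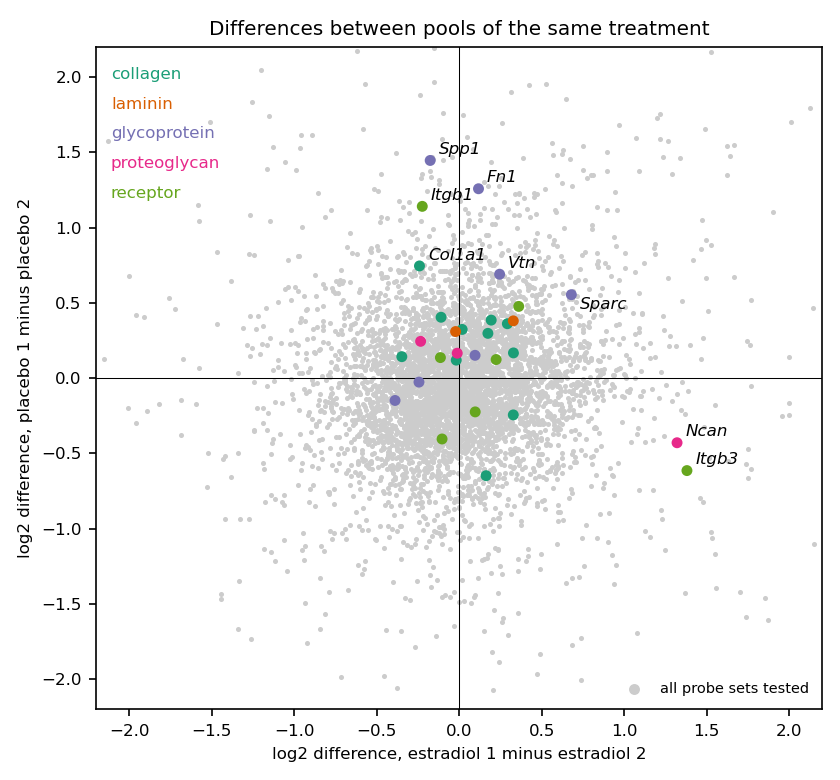
Differences of log2(intensity + 16) between pools of the same treatment, estradiol 1 minus estradiol 2 on the horizontal axis and placebo 1 minus placebo 2 on the vertical axis, for the 30 matrix genes (coloured by role) and all 5244 probe sets tested (grey; 19 lie beyond the axes). Of the matrix genes, 22 lie above the horizontal line, with Spp1, Fn1 and Itgb1 at the top, and Itgb3 and Ncan lie far to the right.

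Marker lists of meninges and choroid plexus moved with this difference. From placebo 2 to placebo 1 the summed intensity went from 1172 to 4060 for meninges and fibroblasts, where 8 of 10 genes were higher in placebo 1, and from 512 to 9831 for choroid plexus, where 5 of 5 were. Within these sums, Ptgds alone went from 551 to 2573 and Ttr alone from 74.3 to 8034. Dcn, the gene of the collagen-binding proteoglycan decorin, stood at 19.8 in placebo 2 and 153.1 in placebo 1, and at 22.1 and 117.9 in estradiol 1 and 2. Slc6a13 and Slc22a6, of the meningeal list, were at background on all arrays, and Aldh1a2 was in both placebo pools. Igf2 is counted in both lists. Vascular and mural genes were higher in placebo 1 for 10 of 12, oligodendrocyte genes for 6 of 6, and neuron genes for 0 of 6. The counts were 5 of 7 for astrocyte, 5 of 8 for microglia and macrophage, and 3 of 5 for blood genes. They were 2 of 8 for striatal and 1 of 6 for cortical neuron genes. Of all probe sets tested, 45.3% were higher in placebo 1. Microglia and macrophage genes, a list that includes Itgam, had sums of 1185 and 895 in placebo 1 and 2. The estradiol pools differed in choroid plexus markers too, with 712 in estradiol 1 and 5179 in estradiol 2, whereas Fn1, Itgb1 and Spp1 differed by at most 0.22 between them on the log2 scale. The part of these tissues in the placebo difference was not tested.

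**Figure D4:**
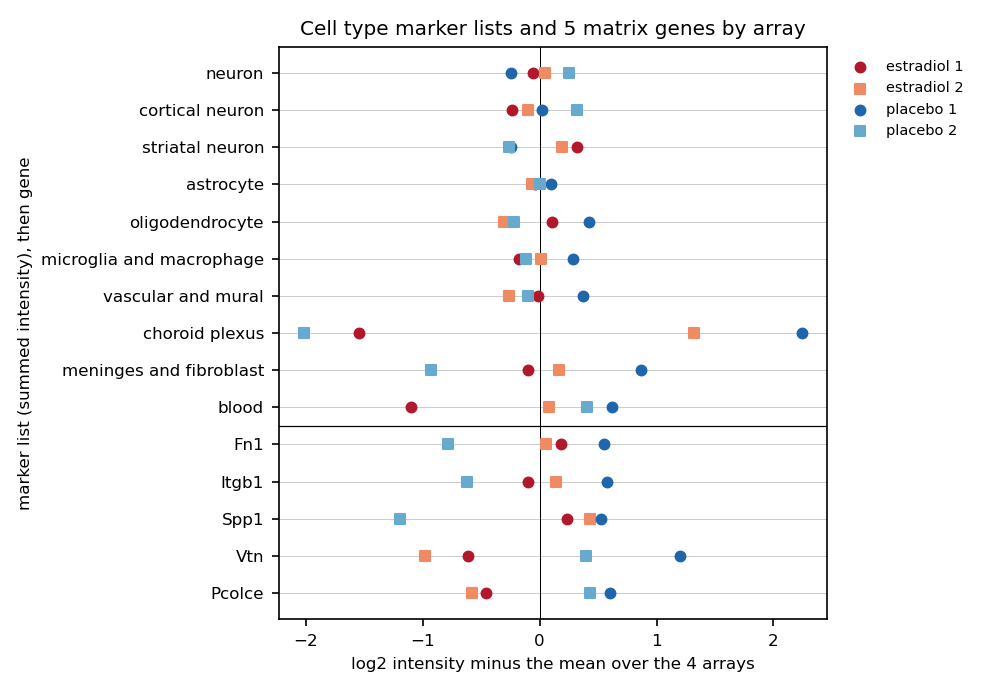
Log2 of the summed intensity of each marker list, and of the intensity of 5 matrix genes, on each array, minus the mean over the 4 arrays. Placebo 1 is highest and placebo 2 lowest for choroid plexus, for meninges and fibroblasts and for Fn1, Itgb1 and Spp1, while Vtn and Pcolce are higher in both placebo pools than in both estradiol pools.

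A longer list held other matrix genes, enzymes and inhibitors that act on the matrix, and adhesion partners of integrins. Of its 76 genes, 54 were measured and 31 passed the filter. Of these 31, 18 had log2 fold changes above 0 and 13 below, with a median of 0.057, 0 passed the adjusted threshold in limma, and at an unadjusted p below 0.05 1 was higher and 0 lower, against 1.74% higher and 1.33% lower of all probe sets tested. The highest values were those of Tln1, which encodes talin, the link between integrins and actin, with 0.76 ± 0.32 (SE), and of Ptprz1, a receptor phosphatase and proteoglycan that binds tenascins, with 0.62 ± 0.30 (SE). Tln1 read 60.8 and 95.8 in the estradiol pools against 42.7 and 34.7 in the placebo pools, without overlap. The lowest were those of Plau, the urokinase gene, with -0.52, and Timp3, a metalloprotease inhibitor gene, with -0.51. Timp3 read 64.5 and 53.3 in the estradiol pools against 135.9 and 58.7 in the placebo pools, so its value came from placebo 1. Dcn, Lum and Mgp are also among the meningeal markers. Of the 31 genes, 20 were higher in placebo 1 than in placebo 2, where 45.3% of all probe sets were.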

How the data were processed

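RNA of 4 pools was hybridised to Affymetrix rat U34 arrays (array A), per the series' design text. The table deposited by the authors gives 1 linear intensity per probe set and array. The authors' columns have 2% trimmed means between 150.18 and 150.20, so they had been scaled before deposit. What program did so was not given in the sources used here. Of 8799 probe sets, 59 controls were left out, and genes were named through the platform annotation where a probe set had 1 symbol. All 45 genes were found in the RefSeq gene table of GRCr8, with 0 symbols changed. The fit used limma 3.58.1 in R 4.3.3 (lmFit, eBayes with an intensity trend, two-sided) on log2(intensity + 16) over the 5244 probe sets at or above the 40th percentile of mean intensity, with an adjusted p below 0.05 as threshold, 2 residual and 5.63 prior degrees of freedom. It was tested on simulated data. Precision is limited by the number of arrays. The p-values set the difference between groups against a spread between pools that was moderated over all probe sets tested.

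A group is at background where both its arrays are at or below their brightest foreign control. Its fold is then a lower bound, the brighter group's mean log2 intensity against the dimmer group's with each array raised to that control. Such a bound describes the readings of these arrays and has no test. Every gene chosen by name is accounted for, with values on every array for those tested; genes with a log2 fold change of at least 0.5 or pools at least 1 apart are described in most depth. The genes and lists were chosen with earlier results of these data known. Probe sets named beside these were chosen after their values were seen. Titles number the pools 1 and 2 in both groups. The log2 differences between pools 1 and 2 of the treatments had a correlation of 0.04 across the 5244 probe sets, which are not independent, so the numbers were not taken as pairs. Python 3.11.15 with pandas 2.3.3 was used for tables and matplotlib 3.10.9 for plots.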

Additional observations from a re-analysis of the deposited data

How the results depend on the processing

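No probe set passed the adjusted threshold in limma under any of the 13 alternatives, with 89 to 337 at an unadjusted p below 0.05. The alternatives were other offsets, filters, normalisations, no trend, the replicate block, the mean of a gene's probe sets, and each array left out, where a lone pool is assumed to vary like the others. Of the 30 genes, 13 kept their sign under every one in which they were tested. The share of all probe sets that kept their sign was not computed. Of the 6 genes with a log2 fold change of at least 0.5, 4 were among the 13, the exceptions being Spp1 and Itgb3. The groups of these 4 do not overlap, so leaving out 1 array could not turn their sign. The same holds for the other genes whose groups do not overlap. The filter at the 60th percentile removed Col1a2, Col4a3, Col5a2, Col15a1 and Vtn of the 13, so these were not tested there. The replicate block left the median at 0.035 and changed no call, with 210 probe sets against 161 at an unadjusted p below 0.05. The counts of genes at that p were chosen after seeing the data. The count of lower genes was 1 with the filter at the 60th percentile, which removes Vtn, and 0 to 2 with 1 array left out, 0 without placebo 1. The count of higher genes was 1 (Col5a2) without the trend and 0 to 2 with 1 array left out, Fn1 and Spp1 without placebo 1 and Itgb3 without estradiol 2. The median lay between -0.072 (without placebo 2) and 0.095 (without placebo 1). At the 60th percentile 13 of 19 genes were higher in placebo 1 than in placebo 2, against 44.9% of all probe sets. Signs turned for Col3a1 with offset 64 (-0.00013), quantile normalisation (-0.018), median centring (-0.022) and the mean of its probe sets (-0.26), for Itgav with quantile normalisation (-0.017) and median centring (-0.013), for Col10a1 with median centring (-0.00011), and with the mean of probe sets for Fn1 (-0.002) and Sparc (0.12). With 1 array left out, log2 fold changes that turned in sign ranged from -0.46 to 0.29 for Col1a1, -0.31 to 0.34 for Col3a1, -0.059 to 0.27 for Col5a1, -0.26 to 0.098 for Col8a1, -0.13 to 0.19 for Col10a1, -0.12 to 0.23 for Col12a1, -0.30 to 0.005 for Lamc1, -0.028 to 0.36 for Agrn, -0.41 to 0.85 for Fn1, -0.62 to 0.062 for Sparc, -0.18 to 1.27 for Spp1, -0.071 to 0.17 for Tnc, -0.81 to 0.51 for Ncan, -0.15 to 0.077 for Itga1, -0.22 to 0.26 for Itgav, -0.53 to 0.61 for Itgb1 and -0.11 to 1.27 for Itgb3. The cause was not tested. Dim signals limit 7 tested genes that were not above background on every array, Col4a3, Col5a2, Col12a1, Vtn, Ncan, Itgav and Itgb3.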
